A study of Mus musculus with 12 samples.

Results

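CCR4-NOT is the main cytoplasmic deadenylase of animal cells, a multi-subunit enzyme that shortens the poly(A) tails of mRNAs. Transcripts of 10 of its subunit genes were followed in mouse oocytes with and without Lsm14b, a gene for an RNA-binding protein of cytoplasmic ribonucleoprotein granules. The 10 genes (Cnot1, Cnot2, Cnot3, Cnot6, Cnot6l, Cnot7, Cnot8, Cnot9, Cnot10 and Cnot11) were found by symbol. All 10 were among the 22801 genes measured at metaphase II (MII), the stage of the mature egg. Only 2 of them, Cnot3 and Cnot6, were among the 3475 genes given for the germinal vesicle stage (GV), where oocytes are still arrested before meiotic maturation. Every gene given for GV already met an unadjusted p under 0.05 and a difference of over 2-fold, so the other 8 genes were not selected there, and their GV levels were not analysed here.

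Each library was made from 15 oocytes in a tube, taken from ovaries of C57BL/6 females at postnatal day 35. Controls (WT) were Lsm14bfl/fl without Cre, and conditional knockouts (CKO) were Lsm14bfl/fl-Gdf9-Cre, so both genotypes carried the floxed alleles and the knockouts alone carried the recombinase. The Gdf9 promoter drives Cre in oocytes, which leaves Lsm14b intact in the other cells of the animal. Both genotypes were sampled at both stages with 3 biological replicates per group, 12 libraries in all, and the comparison asked how oocytes lacking Lsm14b differ from controls at each stage.

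The complex is built on the scaffold protein encoded by Cnot1. It carries a pair of nucleases, a CCR4-type enzyme encoded by Cnot6 or Cnot6l and a CAF1-type enzyme encoded by Cnot7 or Cnot8. Each complex holds only 1 enzyme of either type, so the members of a pair can replace each other in it. Cnot2 and Cnot3 encode the NOT module, Cnot9 a subunit with a docking surface for proteins that bring the complex to mRNAs, and Cnot10 and Cnot11 a module at the other end of the scaffold. A growing oocyte stores mRNAs and then removes many of them during maturation, when transcription is silent, and deadenylation by this complex is known to be part of that removal. Whether a stored mRNA gains or loses its tail depends on elements near its 3′ end, among them the poly(A) signal hexamer and the cytoplasmic polyadenylation element.

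The annotated 3′ ends of the 5 members on which the results turn are shown because they are the windows in which such elements lie. Each is 30 bases of the 3′ untranslated region in the last exon, read 5′ to 3′ on the transcript's strand from GRCm38 with the GENCODE M21 gene models. Capitals mark the hexamer AATAAA and the polyadenylation elements TTTTAT or TTTTAAT.
Cnot3, chr7:3661080-3661109, plus strand: tgAATAAAtagTTTTATatgacggctggca
Cnot6, chr11:49671503-49671532, minus strand: ccaaccAATAAAttcaatatctgtttcaaa
Cnot8, chr11:58118557-58118586, plus strand: TTTTAATtttgtaaAATAAAgattgctttt
Cnot6l, chr5:96070333-96070362, minus strand: taggcAATAAAtggccattttgcaaccgca
Cnot7, chr8:40492540-40492569, minus strand: taAATAAAggcttcaaaaatgttttcctat
In Cnot3 the polyadenylation element starts 9 bases after the start of the hexamer. In Cnot8 it starts before the hexamer, at -14 bases, but the annotation marks the end of this transcript as incomplete. The windows of Cnot6, Cnot6l and Cnot7 hold neither spelling of the element.

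The last 100 bases of the transcripts were searched on the sense strand for the same letters. Of the 9 members with a complete annotated end, 2 (Cnot1 and Cnot3) held TTTTAT or TTTTAAT, which 17.7% of 19846 genes held. The hexamer AATAAA was present in 7 of the 9 members and in 64.4% of all genes. The Pumilio motif TGTANATA was present in 2 of the 9 (Cnot7 and Cnot11) and in 4.25% of all genes. These matches describe the annotated sequence only, since the 3′ ends used in these oocytes were not measured here.

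Lsm14b itself checked the labels. At MII its normalized read count, the count after the authors' scaling between libraries, was 10868, 10643 and 11641 in WT and 821.95, 982.37 and 920.1 in CKO. These leave 8.22% of the WT mean (limma log2 difference -3.61, SE 0.27, adjusted p = 0.00265). At GV its mean was 22931 ± 6257 in WT beside 1436 ± 164 in CKO (SD, n = 3 each), or 6.26%.

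The MII libraries held 23077585 to 124872889 reads, and every WT library was deeper than every CKO library, so depth and genotype cannot be told apart there. Each member had 110 to 82359 reads in a library. WT replicate 3 stood apart from the other 5 MII libraries: its Spearman correlation with them across genes was 0.847 to 0.877, against 0.899 to 0.940 among those 5. A gene listed only under an identifier held 24.3% of its reads, against 6.56% to 11.8% in those 5, and what this gene encodes was not examined here. The summed level of 12 oocyte markers was 11553 to 11949 CPM in WT and 11968 to 14587 in CKO. Within that sum single markers differed between WT libraries in either direction. Zp1 was at 452 CPM in WT replicate 3 beside 2322 and 1874 in WT replicates 1 and 2, and Gdf9 at 5009 beside 2792 and 2730. Of 14 cumulus and granulosa cell markers 10 were in the table, summing to 47.8 to 81.4 CPM in WT and 54.6 to 80.9 in CKO. The 7 measured of 10 markers of theca, stroma and endothelium summed to 58.7 to 91.4 and 73.9 to 83.8 CPM. The 3 measured of 7 blood and immune markers summed to 17.5 to 35.1 CPM in WT and 3.63 to 3.73 in CKO. Of these, C1qb was called lower in CKO (limma log2 difference -3.32, adjusted p = 0.0128), and Ptprc was at 0 in 5 of the 6 libraries. The 2 measured of 7 sperm and early embryo markers summed to 11.3 to 33.0 CPM in WT and 34.2 to 99.4 in CKO. The part of these last lists in the results was not tested. In pooled oocytes, less total RNA per oocyte and fewer intact oocytes per tube cannot be told apart. Neither total RNA nor the number of oocytes is seen in counts scaled between libraries.

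At MII the normalized count of Cnot6 in CKO oocytes stood at 19.7% of its WT mean, and Cnot6 was the only member that passed the test over all genes. The transcripts of Cnot3 and Cnot8 stood at 36.8% and 38.5% of their WT means, with no overlap between the genotypes, but did not pass it. The other 7 members, including the alternative nucleases Cnot6l and Cnot7 and the scaffold Cnot1, overlapped between the genotypes. By limma with an adjusted p under 0.05, 1 of the 10 members was called, in a comparison that called 1.51% of 20388 genes. None was called higher, and at an unadjusted p under 0.05 the count was 3 members, Cnot3, Cnot6 and Cnot8, all lower, where 6.70% of all genes were higher and 9.28% lower. Counting falls alone, 1 of 10 members stood beside 0.991% of all genes. The members' median log2 difference, CKO minus WT, was -0.20, beside -0.11 for all genes tested, with 6 members below 0 and 4 above.

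**Figure D1:**
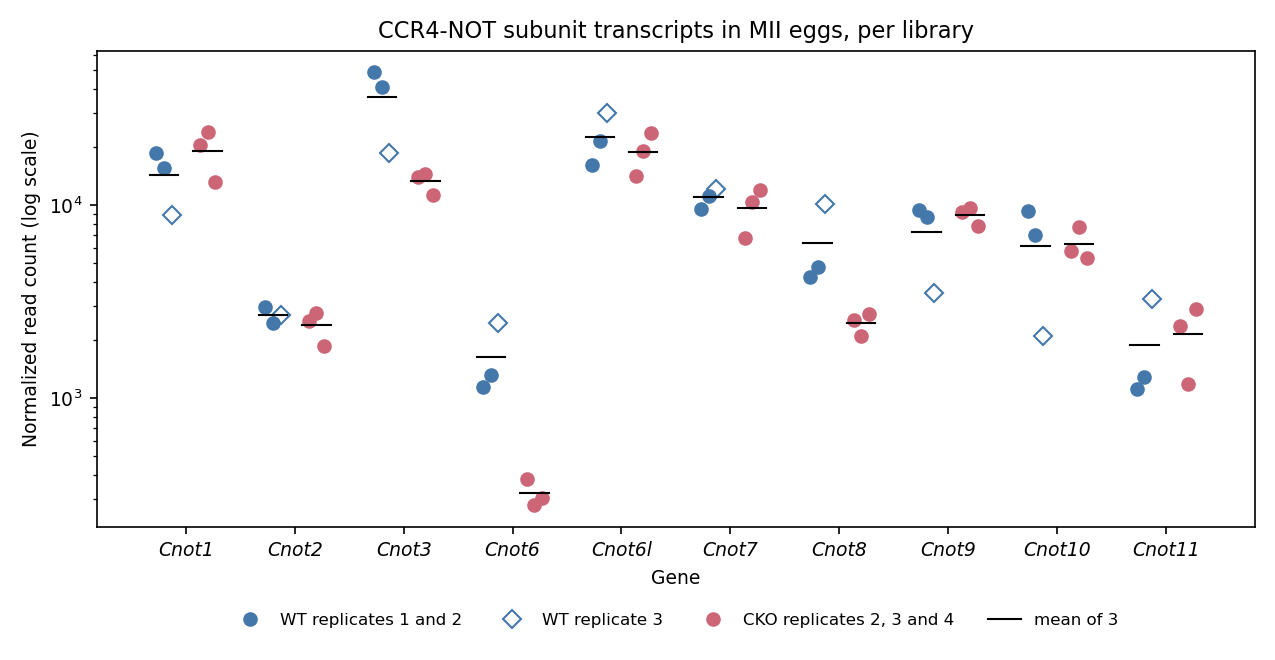
Normalized read counts (log axis) of the 10 CCR4-NOT subunit genes in MII oocytes, 1 point per library, with WT in blue, CKO in red and bars at the mean of 3. The CKO points lie below all WT points for Cnot3, Cnot6 and Cnot8, and the open diamonds of WT replicate 3 often lie away from the other WT libraries.

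Cnot6 (chr11:49671503-49712723, minus strand) encodes a nuclease of the CCR4 type. Its normalized counts at MII were 1137.5, 1321.5 and 2434.6 in WT replicates 1, 2 and 3 and 381.37, 278.51 and 303.03 in CKO replicates 2, 3 and 4. The lowest WT library thus lay far above the highest CKO library, and the CKO libraries were close to each other. The means were 1631 ± 702 and 321 ± 53.7 (SD, n = 3 each), from 1930, 2209 and 4748 reads in WT and 277, 110 and 220 in CKO. The limma log2 difference was -2.27 (SE 0.42, 95% interval -3.21 to -1.34, adjusted p = 0.0336). The authors' deposited table gave -2.34 (SE 0.43) with an adjusted p of 3.04e-06 for the same gene. The fall held without WT replicate 3 (log2 difference -1.94, adjusted p = 0.0346). Leaving out any other library kept its size, between -2.49 and -2.18, but ended the limma call, with adjusted p = 0.104 without WT replicate 1, 0.152 without WT replicate 2, and 0.170, 0.184 and 0.172 without CKO replicates 2, 3 and 4. In each of those 5 limma fits 0 of the 20388 genes passed, while an unadjusted p under 0.05 was found for 971 to 1278 genes in the rising and 1409 to 1729 in the falling direction.

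Cnot6l (chr5:96070333-96164171, minus strand) encodes the other CCR4-type nuclease, the one known for its role in maternal mRNA clearance in mouse oocytes. Its counts were 16057, 21434 and 30076 in WT and 14107, 19083 and 23438 in CKO. The genotypes overlapped over most of their range, with means of 22522 ± 7073 and 18876 ± 4669 (SD, n = 3 each). The limma log2 difference was -0.24, with a 95% interval of -0.97 to 0.50 and an adjusted p of 0.701. The coding sequences of Cnot6 and Cnot6l were identical at 73.6% of aligned bases and their transcripts shared no run of 50 bases, so an exact match of that length belongs to only 1 of them.

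Of the reads of this pair, Cnot6 held 6.62%, 5.81% and 7.49% in the WT libraries and 2.63%, 1.44% and 1.28% in the CKO libraries. The share was 6.64 ± 0.841% in WT beside 1.78 ± 0.741% in CKO (SD, n = 3 each). This share does not depend on the scaling between libraries, and here WT replicate 3 lay close to the other WT libraries. The exact permutation test (two-sided) gave p = 0.1, the smallest that 3 against 3 libraries allow. Cnot6l held the rest, and so the large majority of the pair's reads in every library of either genotype.

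Cnot8 (chr11:58104153-58118594, plus strand) encodes a CAF1-type nuclease. Its counts were 4232.2, 4780 and 10130 in WT and 2538.8, 2104 and 2728.6 in CKO. The groups did not overlap, but WT replicate 3 was more than double the other WT libraries. The means were 6381 ± 3258 and 2457 ± 320 (SD, n = 3 each). The limma log2 difference was -1.27 (SE 0.37, 95% interval -2.09 to -0.45), which did not pass (adjusted p = 0.122), and it was -0.88 without WT replicate 3. In the authors' deposited table the gene had a log2 fold change of -1.38 (SE 0.43) and an adjusted p of 0.0166.

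Cnot7 (chr8:40492540-40515847, minus strand) encodes the other CAF1-type nuclease. Its counts were 9555.9, 11129 and 12147 in WT and 6771.1, 10310 and 11987 in CKO, and they overlapped. The limma log2 difference was -0.21 (95% interval -0.88 to 0.46, adjusted p = 0.714). Cnot7 held 69.3%, 70.0% and 54.5% of the reads of the Cnot7 and Cnot8 pair in WT and 72.7%, 83.1% and 81.5% in CKO. The lowest CKO share was above the highest WT share, with means of 64.6 ± 8.73% and 79.1 ± 5.56% (SD, n = 3 each, two-sided exact permutation p = 0.1, the smallest possible). The gap between CKO replicate 2 and the nearer WT libraries was small beside the distance of WT replicate 3 from both. The coding sequences of the pair were identical at 72.3% of aligned bases, again with no run of 50 bases shared.

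**Figure D2:**
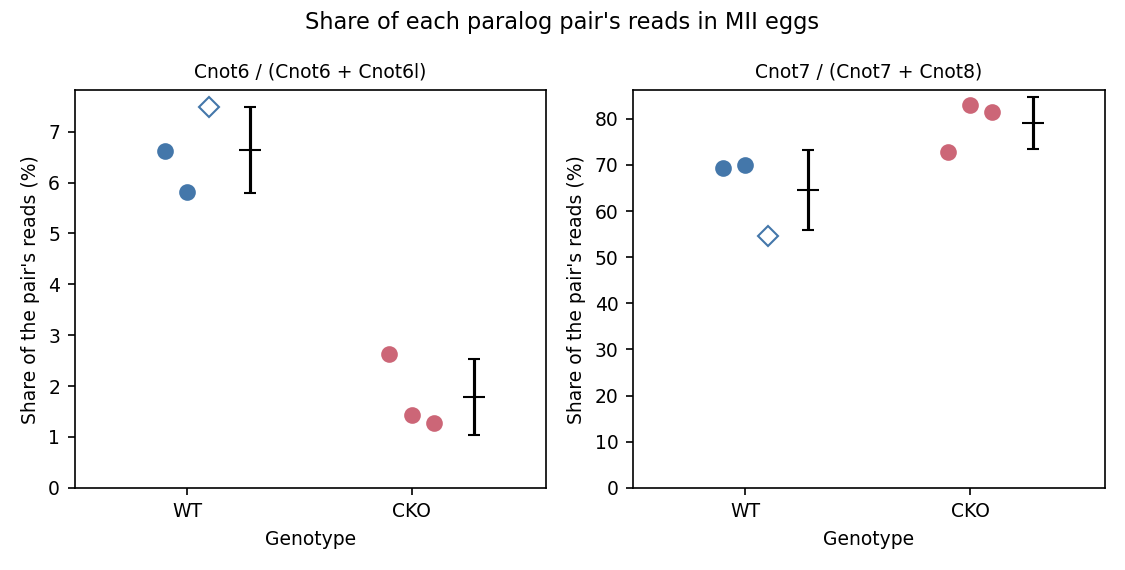
Share of reads (percent, from 0) held by Cnot6 within the Cnot6 and Cnot6l pair (left) and by Cnot7 within the Cnot7 and Cnot8 pair (right) in each MII library, with mean ± SD beside the points and WT replicate 3 as an open diamond. The CKO libraries lie at 1.28% to 2.63% on the left, under all WT libraries, and at 72.7% to 83.1% on the right, above all WT libraries.

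Cnot3 (chr7:3645268-3661109, plus strand) encodes a subunit of the NOT module. Its counts at MII were 48539, 41018 and 18528 in WT and 13983, 14492 and 11249 in CKO. WT replicate 3 lay nearer to the CKO libraries than to the other WT libraries, yet still above all of them. The means were 36029 ± 15615 and 13241 ± 1744 (SD, n = 3 each), and the limma log2 difference was -1.34 (SE 0.38, 95% interval -2.18 to -0.50), which did not pass (adjusted p = 0.113). Without WT replicate 3 the log2 difference was -1.76 and the gene passed the test (adjusted p = 0.0346). That fit called 2 of the 10 members lower, Cnot3 and Cnot6, and 3.06% of all genes. The authors' deposited table gave Cnot3 a log2 fold change of -1.44 (SE 0.42) and an adjusted p of 0.00938. Some 21.6% of the 50-base runs of the Cnot3 transcript also occur in the predicted gene Gm9207, whose own mean of 58.5 normalized counts was 0.237% of that of Cnot3. As for Cnot8, how reads that match both genes were counted is not given. The low level of Gm9207 thus does not show whether the Cnot3 counts were affected.

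Cnot2 (chr10:116485161-116581511, minus strand), the partner of Cnot3 in the NOT module, had 2955.7, 2447.4 and 2704.3 normalized counts in WT and 2519.5, 2759.7 and 1854 in CKO. It was the steadiest member across the WT libraries, and the genotypes overlapped. Its limma log2 difference was -0.20, with a 95% interval of -0.86 to 0.46 and an adjusted p of 0.725. The subunits of the NOT module therefore had point estimates of different size, but the difference between them was not tested.

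Cnot1 (chr8:95719451-95807464, minus strand), the scaffold, had 18637, 15460 and 8884.8 counts in WT and 20327, 23764 and 13133 in CKO. The genotypes overlapped, and the limma log2 difference was 0.44 (95% interval -0.37 to 1.24, adjusted p = 0.610). Of the 50-base runs of Cnot1, 9.04% also occur in Gm6158, at 0.112% of its level, with the same limit as for Cnot3.

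Cnot9 (chr1:74506058-74530842, plus strand), the docking subunit, had 9449.3, 8684.2 and 3511.4 counts in WT and 9159.8, 9585.7 and 7745.1 in CKO. Its limma log2 difference was 0.41 (95% interval -0.45 to 1.28, adjusted p = 0.628), and WT replicate 3 was the one low library. Without that library the log2 difference was -0.043. Exons of Cnot9 overlap Usp37 on the opposite strand, which stood at 10277 normalized counts on average beside 8023 for Cnot9. Whether the counting used strand is not given in the sources used here, so reads of these genes may have been shared.

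Cnot10 (chr9:114585878-114640184, minus strand) had 9347.3, 6999.5 and 2085.9 counts in WT and 5779.8, 7712.1 and 5318.1 in CKO. Cnot11 (chr1:39534992-39546889, plus strand), which pairs with it on the scaffold, had 1115.1, 1285.6 and 3245.8 in WT and 2362.6, 1184.9 and 2892.5 in CKO. In WT replicate 3 Cnot10 was the lowest of its 6 values and Cnot11 the highest of its 6. Both had a limma log2 difference of 0.27, with 95% intervals of -0.86 to 1.39 (adjusted p = 0.791) and -0.83 to 1.36 (adjusted p = 0.784). Without WT replicate 3 Cnot10 turned to -0.39 and Cnot11 moved to 0.75, neither of which passed.

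**Figure D3:**
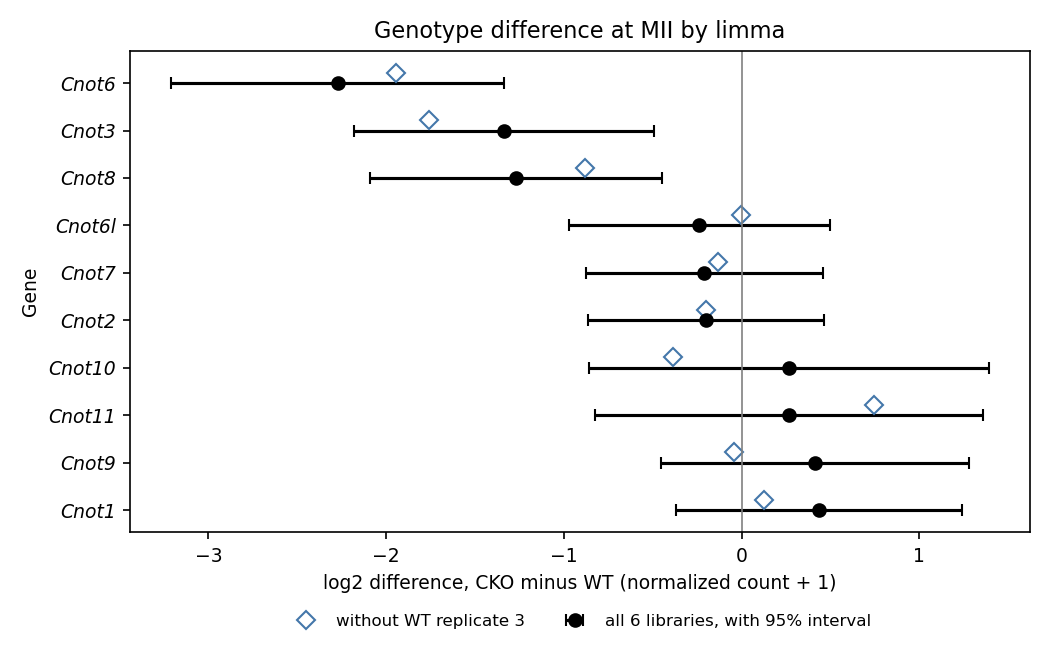
Log2 difference in normalized count, CKO minus WT, at MII for each member (black points, with limma 95% intervals from all 6 libraries) and without WT replicate 3 (open diamonds). The intervals of Cnot6, Cnot3 and Cnot8 lie below 0, and the diamonds of Cnot9 and Cnot10 lie on the other side of 0 from their points.

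WT replicate 3 deviated in different directions from member to member. Relative to the mean of WT replicates 1 and 2 on the log2 scale, it was over 1 higher for Cnot8 (1.17) and Cnot11 (1.44) and over 1 lower for Cnot3 (-1.27), Cnot9 (-1.37) and Cnot10 (-1.95). This made 5 of the 10 members, beside 41.0% of the 7068 genes averaging 500 or more normalized counts. Cnot6, with 0.99, was just within that distance. For Cnot3 this library lay toward the CKO values and for Cnot6 and Cnot8 away from them.

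The 3 of 10 members that lay lower in CKO with no overlap stood beside 12.0% of all genes tested, and whether the members exceed that share was not tested. In a further limma fit (array weights), each library was weighted by how closely these same values followed the mean of its genotype. The weights ran from 0.198 for WT replicate 3 to 4.37 for WT replicate 2. That fit called the same genes, Cnot3, Cnot6 and Cnot8, and 9.28% of all genes lower. The authors' deposited table also called these 3 lower at an adjusted p under 0.05, with 6.94% of 16042 genes.

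As shares of the reads of all 10 members within a library, which are free of scaling between libraries, 5 of the 10 did not overlap. These shares are defined only within the 10 members, so no share over all genes stands beside that count. Cnot3 went from 31.9 ± 10.7% in WT to 15.9 ± 1.998% in CKO, Cnot6 from 1.56 ± 0.901% to 0.390 ± 0.0930% and Cnot8 from 6.16 ± 4.04% to 2.98 ± 0.590%. The scaffold Cnot1 had a higher share in CKO, 22.8 ± 5.64% beside 12.8 ± 3.02%, and so did Cnot9, 10.6 ± 1.08% beside 6.38 ± 2.28% (SD, n = 3 each throughout). The normalized counts of Cnot1 and Cnot9, however, overlapped between the genotypes. Shares of a fixed sum are tied to each other, and Cnot3 had the largest mean share in WT, though in WT replicate 3 Cnot6l held more (32.1% beside 19.8%). The exact permutation tests of the 10 shares, adjusted over them, gave 0.2 at the smallest, so none passed.

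Per kilobase of transcript, the most abundant member in WT oocytes at MII was Cnot3, with 12767 ± 5533 normalized counts per kilobase (SD, n = 3). Below it came Cnot7 with 4185, Cnot8 with 3040, Cnot6l with 2630, Cnot9 with 2208, Cnot10 with 2154, Cnot1 with 1708, Cnot2 with 1004, Cnot11 with 541 and Cnot6 with 284 per kilobase on average. Cnot3 lay above Cnot7 in all 3 WT libraries without overlap of their ranges, while the ranges of all later neighbours in this order overlapped. In CKO, Cnot3 (4692 per kilobase) and Cnot7 (3705) were again first and second, and Cnot2 (883), Cnot11 (617) and Cnot6 (56.0) again last in the same order. Cnot8 moved from rank 3 to rank 7, with 1171 per kilobase. These levels used the transcript with the longest 3′ untranslated region of each gene. The order depends on the length used. Per kilobase of coding sequence Cnot6l came before Cnot7 in WT, Cnot8 moved only from rank 5 in WT to rank 6 in CKO, and Cnot3 was rank 1 in WT but rank 4 in CKO (5877), after Cnot6l (11440), Cnot7 (11333) and Cnot9 (9844).

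At GV only Cnot3 and Cnot6 were given, and both were lower in CKO, as their means were at MII. Genes were given there only with a difference of over 2-fold at an unadjusted p under 0.05. That these 2 differ at GV thus follows from the selection, which the other 8 members did not meet. Cnot3 had 63002, 57116 and 71653 normalized counts in WT replicates 1, 2 and 4 and 28515, 25440 and 26465 in CKO replicates 1, 2 and 4. The libraries within each genotype were close together and the groups were far apart, and CKO stood at 41.9% of the WT mean. In the authors' deposited table the log2 fold change was -1.25 (SE 0.13, adjusted p = 7.6e-21). Cnot6 had 3719.8, 3248.1 and 3763.3 in WT and 1154.3, 1284.7 and 1381.3 in CKO, again well apart, and CKO stood at 35.6% of WT. For it the authors' deposited table gave -1.49 (SE 0.16, adjusted p = 1.81e-18). By an adjusted p under 0.05 and over 2-fold, these 2 of the 10 members were lower at GV, beside 7.89% of the 21462 genes that the adjusted p-values imply were tested. The GV and MII values were scaled separately and no model was fitted across stages, so whether the genotype difference itself changed between stages was not tested.

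**Figure D4:**
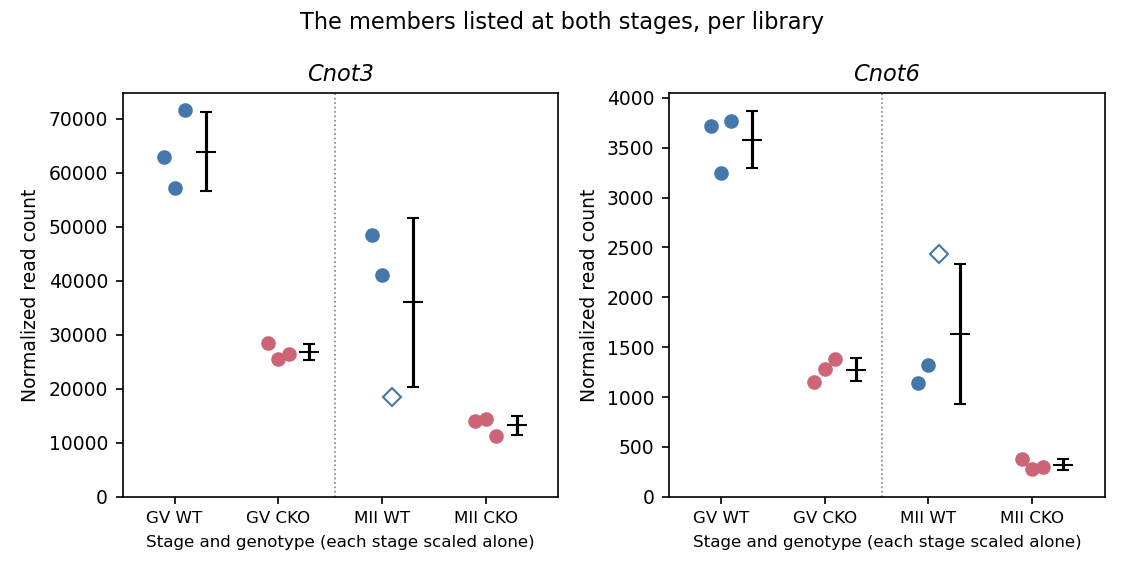
Normalized read counts (linear axis from 0) of Cnot3 (left) and Cnot6 (right) in each library at GV and MII, with mean ± SD beside the points and WT replicate 3 at MII as an open diamond. WT (blue) lies above CKO (red) in every panel and stage, and the dotted line separates stages that were scaled separately.

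A ratio of these genes within a library is free of scaling. At GV, WT libraries held 5.90, 5.69 and 5.25 Cnot6 reads per 100 Cnot3 reads and CKO libraries 4.05, 5.05 and 5.22. The genotypes did not overlap but were separated by a narrow gap (5.61 ± 0.332 and 4.77 ± 0.633, SD, n = 3 each, two-sided exact permutation p = 0.1, the smallest possible). At MII the ratio was 2.34, 3.22 and 13.1 in WT and 2.73, 1.92 and 2.69 in CKO, with overlap (exact permutation p = 0.3), and its spread in WT came from replicate 3.

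Among 6647 genes averaging 500 or more normalized counts, without pseudogenes, Gm and Rik models or genes known only by an identifier, those whose log2 values over the 6 MII libraries were most like those of Cnot6 were Cxcr3, which encodes a chemokine receptor (Pearson r = 0.998), Cd7, which encodes a lymphocyte surface protein (r = 0.998), and Pabpn1l, which encodes a poly(A)-binding protein known from eggs and young embryos (r = 0.997). All 3 share with Cnot6 the genotype groups and a WT replicate 3 above the other WT libraries. Their limma log2 differences were -2.63 (adjusted p = 0.0244), -1.32 (adjusted p = 0.0863) and -4.04 (adjusted p = 0.00796).

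The genes that work with the complex were taken as 4 lists, 54 genes of which 52 were tested at MII. Of these, 2 were called higher, 1 lower and 49 did not pass limma's test, beside the 1.51% called and the median log2 difference of -0.11 in all genes. Among 23 tested recruiters and adaptors, which bring CCR4-NOT to chosen mRNAs, 0 passed by limma or limma-voom, with 4 higher and 6 lower at an unadjusted p under 0.05 (6.70% and 9.28% of all genes) and a median log2 difference of -0.60. Nanos2, a germ cell repressor, had normalized counts of 2058 ± 752 in WT and 806 ± 175 in CKO at MII (log2 difference -1.32, adjusted p = 0.118). Tnrc6a, which links microRNA complexes to CCR4-NOT, had 725 ± 192 and 1777 ± 238 (SD, n = 3 each, log2 difference 1.32, adjusted p = 0.102), and passed without WT replicate 3 (adjusted p = 0.0473). Zfp36l2, which recruits the complex to AU-rich mRNAs, was at 96.1 ± 39.3 in WT and at 0, 0 and 20.7 in the CKO libraries (adjusted p = 0.137). At GV, 6 genes of the list were in the authors' deposited table, where higher and lower mean an adjusted p under 0.05 and over 2-fold. Of these Btg3 was higher (53.0 ± 23.9 and 229 ± 100 in WT and CKO). Nanos2 (7781 ± 1313 and 3349 ± 636), Bicc1 (1525 ± 721 and 510 ± 188), Samd4 (704 ± 160 and 167 ± 42.4), Samd4b (7557 ± 1965 and 3254 ± 354) and Helz (9509 ± 2981 and 3713 ± 414) were lower (SD, n = 3 each). Over all genes at GV, 7.89% of 21462 were lower by this definition, and the share higher by it is not given here. That share and the selection of the GV genes apply to the GV values of the lists that follow too. At MII all of these 6 genes had limma log2 differences below 0 and none passed, with Btg3 at -0.47 (adjusted p = 0.859).

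Of 12 associated proteins and members of the repression module that CCR4-NOT binds, 1 was called at MII, and the list's median log2 difference was 0.39. Patl2, an oocyte protein of the Pat1 family, rose from 920 ± 317 to 3651 ± 596 normalized counts (SD, n = 3 each, limma log2 difference 2.03, SE 0.35, adjusted p = 0.0269). That call ended without any single library other than WT replicate 3. Ddx6, the RNA helicase that docks on the Cnot1 protein, had 1110 ± 760 and 3583 ± 535 (log2 difference 1.89, adjusted p = 0.0767), and passed without WT replicate 3 (adjusted p = 0.0346). In the authors' deposited table for GV, Patl2 rose from 5801 ± 714 to 23420 ± 744 and Ddx6 from 3661 ± 878 to 9548 ± 577, while Dcp1a, a cofactor of decapping, fell from 522228 ± 93712 to 214053 ± 30230 (SD, n = 3 each). Edc3, also there, had an adjusted p of 0.09996. At MII Dcp1a overlapped between the genotypes (limma log2 difference -0.44, adjusted p = 0.624).

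Of the 9 genes listed as other deadenylases, 0 passed at MII by limma or limma-voom, with 1 higher and 2 lower at an unadjusted p under 0.05, beside 6.70% and 9.28% of all genes. Whether each of their products removes poly(A) tails was not tested. Their median log2 difference was 0.25. Noct, which encodes an enzyme of the same superfamily as Cnot6, had 1931, 2678 and 7103 counts in WT and 779.3, 379.8 and 928.4 in CKO. The groups were apart, with a log2 difference of -2.35 (SE 0.53, adjusted p = 0.0621). Angel2, of that superfamily too, had a log2 difference of -0.86 (adjusted p = 0.180), Pde12 of -0.79 (adjusted p = 0.390) and Toe1 of 2.99 (adjusted p = 0.397). The Toe1 value rests on WT replicate 3, where the gene was at 0, and was 0.80 without that library. Pnldc1, the nuclease that trims piRNAs, had 1680, 1558 and 1849 counts in WT and 4659, 4717 and 2800 in CKO (log2 difference 1.22, adjusted p = 0.0923). At GV, by the authors' deposited table, Noct was lower (6116 ± 311 and 2377 ± 162), Angel2 was lower (35161 ± 2498 and 16895 ± 4895) and Pnldc1 was higher (1958 ± 240 and 4909 ± 489, SD, n = 3 each).

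Of 8 poly(A)-binding proteins and their interactors, 2 were called at MII (median log2 difference 0.53). Pabpc1, the cytoplasmic poly(A)-binding protein of somatic cells, rose from 414 ± 192 to 5794 ± 1447 counts (limma log2 difference 3.91, adjusted p = 0.00912). Pabpn1l fell from 10206 ± 6379 to 555 ± 102 (SD, n = 3 each). Both calls ended, as for Cnot6, when any 1 library other than WT replicate 3 was left out. In the authors' deposited table for GV, Pabpc1 rose from 2539 ± 1021 to 22277 ± 2752 and Pabpn1l fell from 25480 ± 1386 to 2233 ± 585 (SD, n = 3 each).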

How the data were processed

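Total RNA of pooled oocytes was sequenced as standard Illumina libraries, with replicates that the labels call biological. The sources used here give no aligner, genome build, annotation, counter or strand setting. Whether RNA was selected by its poly(A) tail is not stated here either. Counts may therefore differ with tail length as well as with transcript amount, and which of these applies was not tested. Per library the authors deposited log10(normalized count + 1). Beside these values stood, per the file headers, the signal averaged over 6 libraries (mean normalized count), the log2 fold change and its error, a test score, and raw and adjusted p-values.

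Normalized counts were computed back from the log10 values, and each was a whole multiple of a constant unit in its library (100% within 0.05 of a whole number), which gave the reads. No libraries were duplicates of each other. Since the values were not raw counts, the edgeR test planned for counts was replaced. The MII test was limma (3.58.1, R 4.3.3, with trend) on log2(normalized count + 1) of 6 libraries by genotype, over 20388 genes with a mean of at least 1, with Benjamini-Hochberg adjustment and a threshold of 0.05. Nothing added in a known amount was used for scaling, so a change in total RNA per oocyte would not show. Whether tubes came from separate females is not stated, and p-values measure the spread between tubes. The procedure was tested on simulated counts in which all libraries had the same spread. None of them stood apart as WT replicate 3 does, so the simulation does not show how the procedure handles such a library. Fold changes on this scale understate changes of low genes. At GV no model was fitted, since only selected genes were given. Shares were tested by exact permutation (SciPy 1.17.1). Gene positions and sequences came from GENCODE M21 on GRCm38, by symbol, and not from the authors' annotation.

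The members and lists were chosen with earlier results of these data known. Named genes were all members, Lsm14b, each list's genes past the threshold at MII or given at GV, in lists with no MII call the 2 further genes with the smallest p, and the 3 genes most correlated with a member past the threshold. Each library was left out in turn, and other alternatives were a replicate block, array weights, limma-voom on the reads, library size alone, no filter, a 2-fold minimum and a pseudocount of 0.1.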

Additional observations from a re-analysis of the deposited data

How the results depend on the processing

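The fit as reported called 106 genes higher and 202 lower, and limma-voom 91 and 80, with medians of all genes at -0.11 and 0.02. The median was -0.09 with library size alone. In all genes, array weights called 1297 higher and 1893 lower and leaving out 1 library 0 to 266 higher and 0 to 624 lower. With them the number of members called was 3 with array weights, 0 with limma-voom and 0 to 2 without a library. Recruiters came to 9 with array weights and 0 to 1 without a library, associated proteins to 2 and 0 to 2, other deadenylases to 3 with array weights, and poly(A)-binding genes to 4 and 0 to 2. Counts of 0 are by limma, while the unadjusted p was under 0.05 for 2 or 3 members in each fit without a library and for 3 (Cnot3, Cnot6, Cnot8) by limma-voom.

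A fit with the replicate number as a block (replicate block) called 0 genes higher and 0 lower (528 and 968 at an unadjusted p under 0.05), 0 members, 0 associated proteins and 0 poly(A)-binding genes. The smallest adjusted p of any gene in this limma fit was 0.587. Estimating a level for each replicate number left little of the 6 libraries to measure spread, so its lack of calls says little about single genes. This fit gave 0.036 for Cnot2 and -0.29 for Cnot11. At MII the genotypes share only numbers 2 and 3, whose deviations correlated at 0.142 and -0.387, and at GV the correlations were -0.03, 0.09 and -0.02, so no pairing was taken from the numbers.

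Cnot6 passed the threshold in 5 of 12 alternatives, with log2 differences from -2.49 to -1.94. By limma-voom its adjusted p was 0.094 and with the block 0.587. The block fit, in which no gene passed, is counted among the 12. Lsm14b itself passed in 6 of 12, with -3.67 to -3.54. Cnot3 passed in 2 (-1.76 to -0.95 over all 12) and Cnot8 in 1 (-1.59 to -0.88). Directions turned for Cnot7 (0.030 without CKO replicate 2, range -0.38 to 0.030 without a library), Cnot9 (-0.043 without WT replicate 3, range -0.043 to 0.67), Cnot10 (-0.18 with array weights, -0.39 without WT replicate 3, range -0.39 to 0.70) and Cnot11 (-0.025 without WT replicate 1, range -0.025 to 0.75), none of them past the threshold. Scaled by the total of the GV genes, Cnot3 was at -1.07 and Cnot6 at -1.31, and without a library at -1.33 to -1.16 and -1.56 to -1.42. Both paralog shares kept their direction in all 7 alternatives run for them, Cnot6 at -5.28 to -4.43 and Cnot7 at 9.45 to 17.7 percentage points without a library. The causes were not tested.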
